A study of Homo sapiens with 8 samples.

Results

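Aminoacyl-tRNA synthetases are the enzymes that join each amino acid to its tRNA. The set described here holds 36 genes, chosen by name: 18 cytosolic synthetases, 15 mitochondrial synthetases and 3 scaffold proteins of the multi-synthetase complex. All 36 were found by symbol among the 60617 genes of the deposited count table, and all 36 had enough reads to be among the 17693 genes tested. The rule that lists them uses names and no measured value, although the set was proposed with earlier results of these data known.

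The study measured poly(A)-selected RNA in MCF-10A, an established, immortal line of human mammary epithelium that does not form tumors, to compare how transformed cells and control cells respond to JG-98, an inhibitor of the chaperone Hsp70. There were 4 groups of 2 libraries each: Empty cells untreated, Empty cells given JG-98 at 1 µM for 12 h, NeuT cells untreated, and NeuT cells given the same dose for the same time. Both lines were grown with horse serum, epidermal growth factor, hydrocortisone, insulin and cholera toxin. What the NeuT line carries, what drives it and whether either line is 1 clone are not given in the sources used here, nor is a vehicle for the untreated cells.

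7 of the 8 libraries held 55050996 to 56861971 counted reads, and replicate 1 of the treated Empty cells held 37341458. Replicates are libraries that share a label, and nothing says that they came from separate cultures, so each p-value measures the spread between these libraries, which may be technical. The 12 mammary epithelial markers checked were all above 3 counts in each library, and their summed level was 25670 to 33978 CPM, counts scaled to the same library total. 4 leukocyte markers summed to at most 0.0928 CPM. 5 fibroblast markers summed to 8.51 to 9.71 CPM in Empty libraries and 68.3 to 82.9 CPM in NeuT libraries. Decorin (DCN) made up nearly all of that difference and was the 1 of the 4 tested that was called between untreated lines. 4 endothelial markers summed to 9.29 to 17.5 CPM. 3 adipocyte markers summed to 0.0701 to 0.247 CPM in Empty libraries and 0.796 to 1.72 CPM in NeuT libraries. Between untreated lines, 11 of the 12 mammary epithelial markers were called (9 higher in NeuT, 2 lower), beside 42.0% of all genes. So were 2 of the 4 endothelial markers and 1 of the 2 adipocyte markers tested. Levels below are CPM with edgeR's scaling for library composition (TMM), which do not correct for gene length unless "per kilobase" is written. A gene is said to have risen or fallen, or is called, where edgeR's quasi-likelihood test gave a Benjamini-Hochberg adjusted p under 0.05 over all 17693 genes.

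Most cells keep separate synthetases for the cytosol and for the mitochondria, all of them encoded in the nucleus. GARS1 and KARS1 are exceptions, since each makes the enzyme for both places, and mitochondrial glutaminyl-tRNA is made by an indirect route. When the translation factor eIF2 is phosphorylated under stress, general translation slows and the transcription factor ATF4 is made in larger amounts. ATF4 is known to act on genes of amino acid uptake and synthesis and on many cytosolic synthetase genes, through a DNA element called the C/EBP-ATF response element.

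The core of that element, TGATGNAA, was searched on both strands from 250 bases before to 50 bases after each RefSeq start (assembly GRCh38.p14). A window was given for 33 of the 36 genes, and YARS1, LARS1 and AARS2 had none. The 30-base stretches that hold a match are shown because 7 of the 8 fall on cytosolic synthetase genes that rose with JG-98 in NeuT cells. Each is written 5′ to 3′ on the strand of its gene, with the match in capitals. The core reads TTNCATCA where it lies on the strand opposite to the gene.
CARS1 (chr11:3057407-3057436, minus strand): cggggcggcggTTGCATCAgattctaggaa
GARS1 (chr7:30594834-30594863, plus strand): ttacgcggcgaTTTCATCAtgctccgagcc
AARS1 (chr16:70289675-70289704, minus strand): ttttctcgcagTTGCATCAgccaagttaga
MARS1 (chr12:57488053-57488082, plus strand): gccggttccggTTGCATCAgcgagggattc
IARS1 (chr9:92293692-92293721, minus strand): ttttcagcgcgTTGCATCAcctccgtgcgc
TARS1 (chr5:33440956-33440985, plus strand): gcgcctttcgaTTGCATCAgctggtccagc
NARS1 (chr18:57621804-57621833, minus strand): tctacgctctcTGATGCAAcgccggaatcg
YARS2 (chr12:32756076-32756105, minus strand): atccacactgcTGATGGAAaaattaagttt

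7 of these 8 genes are cytosolic synthetases, and all 7 rose with JG-98 in NeuT cells, where 2.01% of all genes tested rose and 3.01% changed in either direction. The first base of the match lay 2 bases before the RefSeq start in CARS1, 4 before in MARS1, 13 before in IARS1, 33 before in GARS1 and 187 before in AARS1. It lay after the start in TARS1 and NARS1, by 2 and 14 bases. 6 of the 7 cytosolic matches were on the strand opposite to the gene, and 6 of the 7 read TGATGCAA, with GARS1 reading TGATGAAA. The mitochondrial gene with a match, YARS2, had TGATGGAA 197 bases before its start and was not called with JG-98 in either line.

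Some genes have more than 1 RefSeq window, and a gene was counted once if any of its windows held the core. The share of genes with the core was 4.46% (1217 of 27305) over all genes with a window, and 24.2% (8 of 33) over the synthetase and scaffold genes. Per window it was 3.62% of all 35116. It was 43.8% (7 of 16) among cytosolic synthetases, 7.14% (1 of 14) among mitochondrial ones, and 0 of 3 scaffold genes had it. Among the cytosolic synthetases with a window, 7 of 10 that rose in NeuT cells had the core and 0 of 6 of the others did. EPRS1, SARS1 and WARS1 rose without these letters in their windows, which says nothing of sites elsewhere. Of all genes that rose with JG-98 in NeuT cells and had a window, 12.2% (33 of 271) had a match, against 2.08% of those that fell (3 of 144) and 2.71% of those not called (304 of 11236). The 33 include the 7 synthetases.

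Before any change is considered, the genes differed widely in level. Per kilobase of exon, averaged over the 4 groups, cytosolic synthetases had a median of 44.1 CPM per kilobase and mitochondrial ones 8.09, and the 3 scaffold genes were at 21.6 (AIMP2), 19.8 (AIMP1) and 5.97 (EEF1E1). The highest was KARS1, the lysyl-tRNA synthetase, at 88.1 CPM per kilobase, followed by GARS1 (glycyl) at 74.1, RARS1 (arginyl) at 67.6 and NARS1 (asparaginyl) at 64.0. The mitochondrial gene highest in the order was IARS2 (isoleucyl), in the ninth place at 45.7. CARS1, the cytosolic cysteinyl enzyme, was the lowest of its class at 4.12 CPM per kilobase, a level that depends on its 10037 bases of merged exons.

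The lowest levels belonged to AARS2 at 3.97, PARS2 at 3.90 and SARS2 at 0.468 CPM per kilobase. SARS2 is uncertain, because 57.0% of its exonic bases in the annotation lie in other genes, among them MRPS12. 7 of the 36 genes share at least 10% of their exonic bases with other genes, counting both strands. Beside SARS2 these are AIMP2 (29.1%, with EIF2AK1, the gene of the eIF2 kinase HRI), EEF1E1 (18.8%, all of it on the same strand) and YARS2 (18.3%). The others are MARS1 (13.3%, with genes that include DDIT3), AIMP1 (11.6%) and WARS1 (10.6%). Whether the authors' counting used strand is not given in the sources used here, so reads from such stretches cannot be assigned with certainty.

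**Figure D1:**
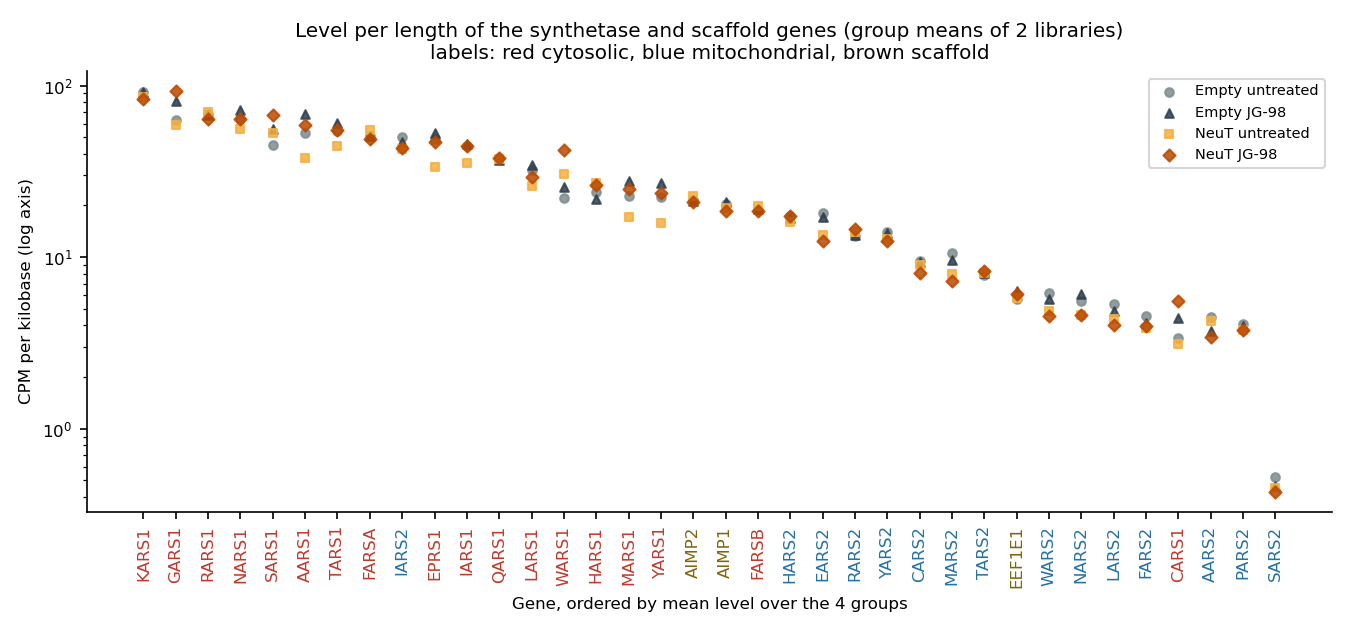
Level of each gene in CPM per kilobase of exon (log axis), as the mean of 2 libraries in each of the 4 groups, ordered by the mean over groups. Cytosolic genes take the first 8 places, from KARS1 at 88.1, and SARS2 is lowest at 0.468.

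In NeuT cells, 11 of the 18 cytosolic synthetases rose with JG-98, and none of the 15 mitochondrial synthetases and none of the 3 scaffold genes was called. Over all genes tested, 2.01% rose and 1.01% fell. The 11 were CARS1, GARS1, AARS1, YARS1, MARS1, EPRS1, WARS1, SARS1, IARS1, TARS1 and NARS1, with log2 fold changes from 0.20 to 0.84. The cytosolic class had a median log2 fold change of 0.32 with 13 of 18 genes above 0, the mitochondrial class a median of -0.05 with 6 of 15 above 0, and all genes tested a median of 0.000213. 14 of the 18 cytosolic genes, 2 of the 15 mitochondrial genes and no scaffold gene had an unadjusted p under 0.05, against 16.0% of all genes. DESeq2 and an edgeR fit with no filter on low counts each called 1 further gene, the mitochondrial AARS2, as lower. Without replicate 1 of treated NeuT, 14 of the 36 were called: the same 11 and LARS1 as higher, and the cytosolic FARSA (adjusted p 0.0273) and RARS1 (0.0111) as lower, while 6.27% of all genes were higher and 5.15% lower in that fit.

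CARS1 (chr11:3000922-3057613, minus strand), the cysteinyl-tRNA synthetase, rose most. Its level was 30.1 and 32.3 CPM in untreated NeuT libraries and 51.1 and 60.6 CPM in treated ones. The treated libraries were both higher, with replicate 2 above replicate 1. With n = 2 libraries a group, the log2 fold change of 0.84 had an SE of 0.080, and the adjusted p from edgeR was 1.3e-05. All 11 genes had treated libraries above untreated ones with no overlap, which alone is common here, since 21.9% of all genes had it in that direction.

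GARS1 (chr7:30594838-30634033, plus strand), the glycyl enzyme of both compartments, went from 234.4 and 234.2 CPM to 343.1 and 396.9 CPM. AARS1 (chr16:70252295-70289543, minus strand), the alanyl enzyme, went from 170.0 and 171.4 CPM to 237.6 and 290.3 CPM. Neither gene's groups overlapped, and in both genes treated replicate 2 was the highest NeuT library. Their log2 fold changes were 0.66 (SE 0.075, edgeR adjusted p 0.000178) and 0.63 (SE 0.076, adjusted p 0.000268).

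YARS1, the tyrosyl enzyme, was at 132.5 and 127.8 CPM untreated and at 182.4 and 204.0 CPM with JG-98, a log2 fold change of 0.57 (SE 0.059, edgeR adjusted p 3.4e-05). MARS1, the methionyl enzyme, was at 118.9 and 122.9 CPM untreated and at 157.1 and 195.3 CPM treated, a log2 fold change of 0.54 (SE 0.079, edgeR adjusted p 0.00128). EPRS1, the fused glutamyl and prolyl enzyme, was at 181.1 and 176.2 CPM untreated and at 232.3 and 264.3 CPM treated, a log2 fold change of 0.47 (SE 0.068, edgeR adjusted p 0.000764). In all 3 genes the treated libraries lay above the untreated ones, and treated replicate 2 lay above replicate 1.

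WARS1, the tryptophanyl enzyme, which is also known as an interferon-induced gene, was at 196.1 and 189.6 CPM untreated and at 253.0 and 280.0 CPM treated (log2 fold change 0.47, SE 0.066, edgeR adjusted p 0.000631). SARS1, the seryl enzyme, was at 201.4 and 205.0 CPM untreated and at 250.6 and 267.9 CPM treated (0.35, SE 0.058, adjusted p 0.00242). WARS1 and SARS1 had separate groups, as had the next 3 genes, whose changes were smaller. IARS1 (isoleucyl) went from 263.6 and 257.3 CPM to 313.8 and 343.0 CPM, a log2 fold change of 0.33 (SE 0.055, adjusted p 0.0023). TARS1 (threonyl) went from 255.6 and 254.3 CPM to 307.4 and 326.0 CPM, a log2 fold change of 0.31 (SE 0.053, adjusted p 0.00296). NARS1 (asparaginyl) went from 231.0 and 225.4 CPM to 258.4 and 267.0 CPM, a log2 fold change of 0.20 (SE 0.053) that passed the threshold narrowly, with an edgeR adjusted p of 0.0458.

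Treated replicate 2 was the higher of the treated NeuT libraries in all 11 genes. ATF4 differed in the same direction, at 248.6 CPM in replicate 1 and 310.5 CPM in replicate 2, against 109.7 and 110.9 CPM in untreated NeuT libraries, and its part in the synthetase levels was not tested. The treated NeuT replicates also differed most among the 4 pairs of replicates, with a chi-square of 22.0 per gene against 4.52 to 8.20 in the other groups. Without either of the untreated NeuT libraries, IARS1, SARS1, TARS1 and NARS1 were no longer called, and the number of the 36 called went from 11 to 7, while 0.706% and 0.766% of all genes were called. NARS1 was also not called in 9 other alternatives, so its call is the least secure of the 11.

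**Figure D2:**
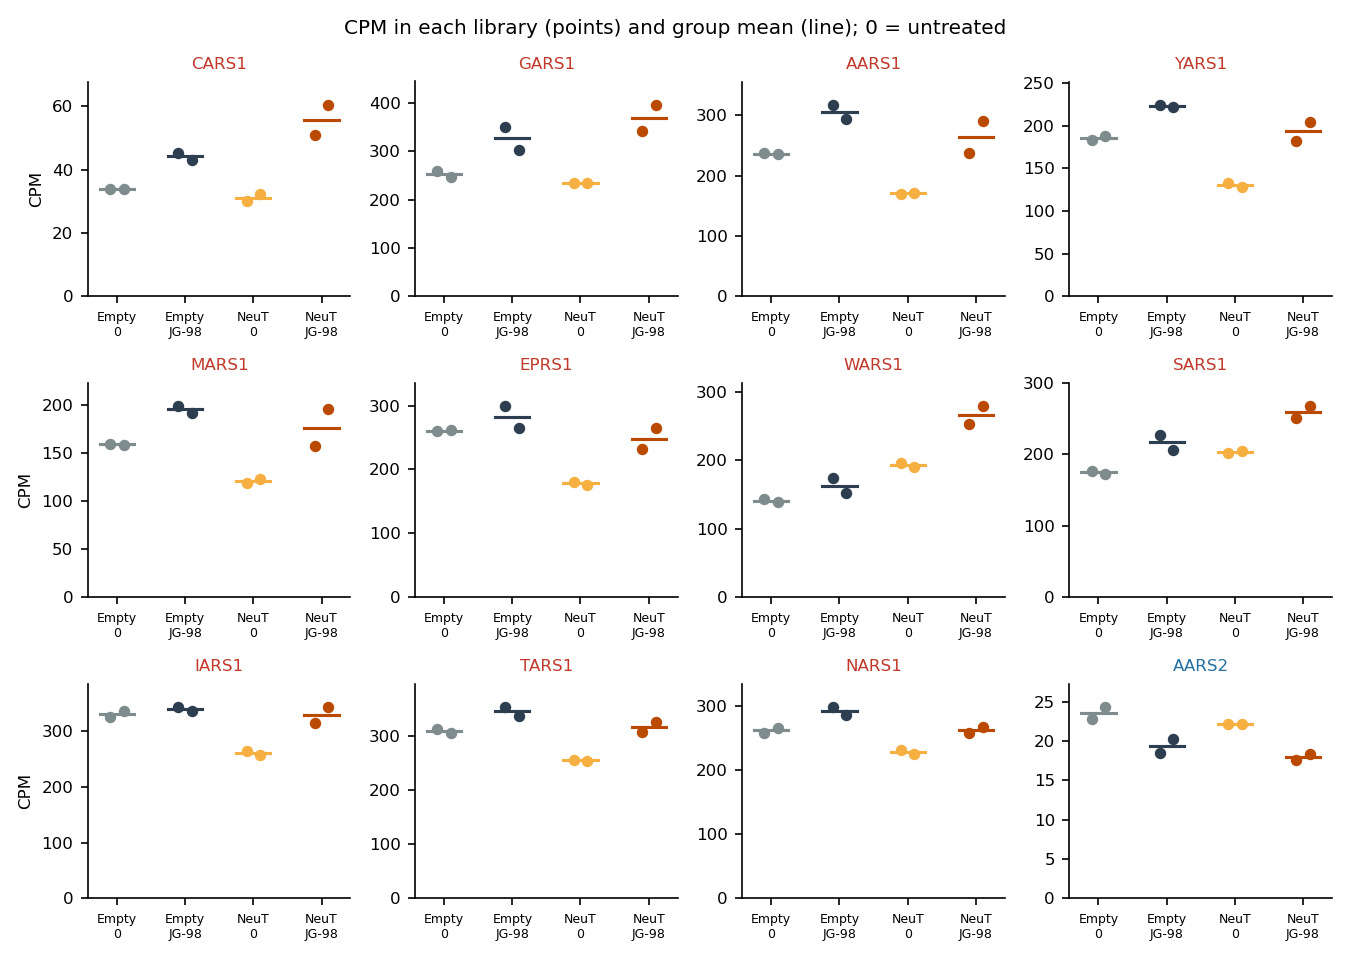
CPM in each library (points) and group means (lines) for the 11 cytosolic synthetases that rose with JG-98 in NeuT cells and for AARS2, with each axis starting at 0. CARS1 goes from 30.1 and 32.3 CPM to 51.1 and 60.6 CPM in NeuT cells, and AARS2 is lower in all 4 treated libraries than in all 4 untreated ones.

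The other 7 cytosolic synthetases were not called in NeuT cells. LARS1, the leucyl enzyme, was at 213.2 and 210.4 CPM untreated and at 230.2 and 247.1 CPM treated, a log2 fold change of 0.17 (95% interval 0.06 to 0.29, edgeR adjusted p 0.109). FARSA and FARSB encode the alpha and beta subunits of the phenylalanyl enzyme, and their log2 values were -0.16 (95% interval -0.28 to -0.05, adjusted p 0.132) and -0.10. RARS1 had -0.14, HARS1 (histidyl) -0.04, KARS1 -0.03 and QARS1 (glutaminyl) 0.02. KARS1, RARS1 and FARSA, the highest per kilobase of the 7, had untreated levels of 344.7 and 349.4, 243.4 and 238.5, and 131.9 and 135.4 CPM. With JG-98 they were at 348.7 and 331.3, 227.2 and 209.8, and 121.5 and 117.4 CPM, and only KARS1 of these 3 had overlapping groups. RARS1 and FARSA had lower treated libraries without overlap, as had 22.9% of all genes.

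Set out by complex, 3 of the 7 synthetases that belong to the multi-synthetase complex rose in NeuT cells (EPRS1, IARS1, MARS1; median of all 7, 0.17) and 8 of the 11 cytosolic synthetases outside it (median 0.35). Set out by structural class, 5 of 8 class I enzymes (median 0.40) and 5 of 9 class II enzymes (median 0.20) rose, with EPRS1, which has a part of each, in neither. No test compared these groups. The summed level of the 18 cytosolic genes was 3463 and 3452 CPM in untreated NeuT libraries and 4020 and 4308 CPM in treated ones, while the 15 mitochondrial genes summed to 675.4 and 666.4 CPM and to 655.3 and 653.4 CPM.

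The scaffold genes hold the multi-synthetase complex together. AIMP1 was at 63.3 and 65.6 CPM in untreated NeuT libraries and 65.6 and 58.7 CPM in treated ones, AIMP2 at 44.8 and 38.6 and at 39.2 and 37.5 CPM, and EEF1E1 at 12.6 and 11.5 and at 13.7 and 11.7 CPM. All 3 genes had overlapping groups. Their log2 fold changes were -0.05 (95% interval -0.20 to 0.09), -0.12 (-0.29 to 0.04) and 0.07 (-0.15 to 0.30).

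In Empty cells, 1 of the 36 genes was called, SARS1, which rose, while 0.260% of all genes tested rose and 0.0791% fell. SARS1 (chr1:109213918-109238182, plus strand) was at 176.7 and 172.5 CPM untreated and at 226.4 and 206.1 CPM with JG-98. The treated libraries were both above the untreated ones, which was so for 20.9% of all genes, and the log2 fold change was 0.31 with an SE of 0.059 (adjusted p 0.0274 in edgeR). That call was lost with limma-voom and without any 1 of 5 libraries: either untreated library of either line, or replicate 1 of the treated Empty cells. Without either treated NeuT library, whose spread enters the shared fit, 9 genes were called in Empty cells, while 2.23% and 2.16% of all genes were called in those fits.

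The largest changes in Empty cells were again in CARS1, GARS1 and AARS1, whose calls depended on the fit. They did not pass as reported, but all 3 were called higher with total counts, with no filter on low counts, with DESeq2 and with only the 4 Empty libraries. The members called went from 1 to 4 with total counts and to 6 in each of the other 3 fits, in which 0.384%, 0.882%, 0.853% and 1.22% of all genes were called, in the order named. CARS1 was at 33.9 and 34.1 CPM untreated and at 45.4 and 43.1 CPM treated, a log2 fold change of 0.38 (SE 0.080, edgeR adjusted p 0.0599). AARS1 was at 237.6 and 235.6 CPM and at 318.1 and 294.1 CPM (0.37, adjusted p 0.0563), and GARS1 at 258.7 and 246.5 CPM and at 351.4 and 302.5 CPM (0.37, adjusted p 0.0546). None of the 3 had overlapping groups. YARS1 had 0.27 (adjusted p 0.0684), MARS1 0.30 (0.167), WARS1 0.21 (0.259), TARS1 0.16 (0.281), NARS1 0.16 (0.277), EPRS1 0.12 (0.606) and IARS1 0.04 (0.886).

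By class, the cytosolic genes had a median log2 fold change of 0.14 in Empty cells with 14 of 18 above 0, and the mitochondrial genes -0.08 with 3 of 15 above 0, beside a median of -0.00334 over all genes tested. 11 of the 36 had an unadjusted p under 0.05, 10 of them cytosolic, against 9.83% of all genes. The cytosolic genes summed to 3843 and 3815 CPM in untreated Empty libraries and to 4328 and 4094 CPM in treated ones. AIMP1, AIMP2 and EEF1E1 had log2 values of 0.05, -0.02 and 0.15, none of them called. Treated replicate 1, the shallowest library, was higher than replicate 2 for SARS1 and for CARS1, GARS1 and AARS1.

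**Figure D3:**
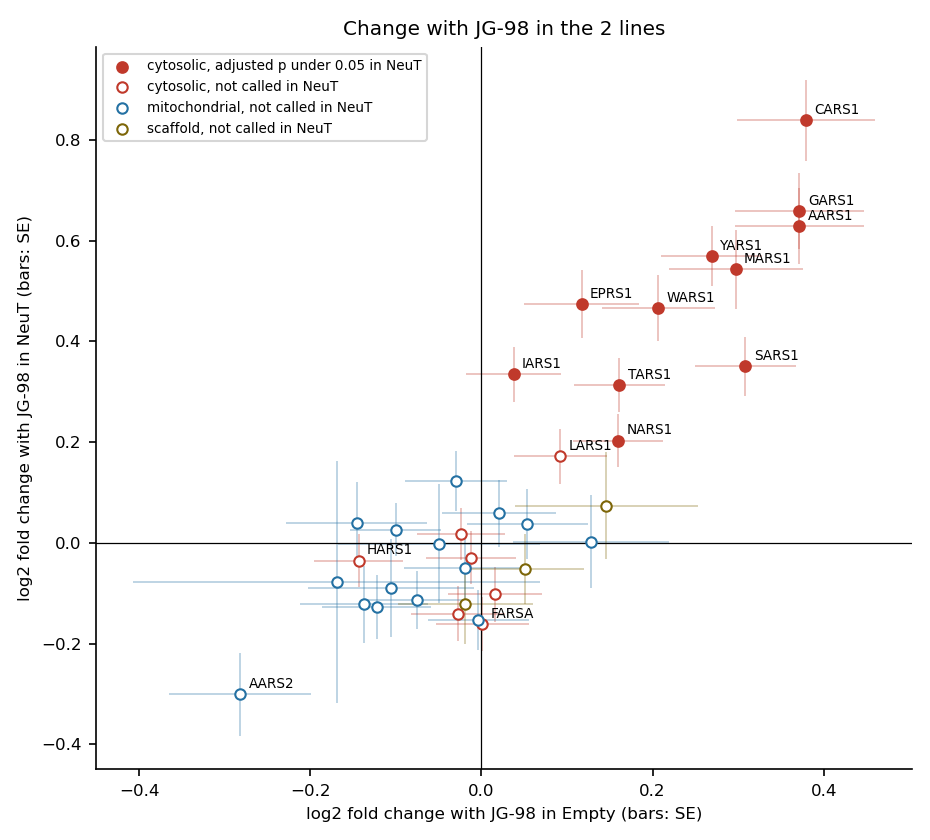
Log2 fold change with JG-98 in Empty cells (x axis) and in NeuT cells (y axis) for each of the 36 genes, with bars of 1 SE and filled points for genes called in NeuT cells. The filled points are all cytosolic, from NARS1 at 0.20 to CARS1 at 0.84 in NeuT cells.

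Averaged over both lines, with 4 treated and 4 untreated libraries, 12 of the 36 genes were called: the same 11 cytosolic synthetases as higher, and the mitochondrial AARS2 as lower. In that comparison 2.39% of all genes rose and 1.58% fell. The log2 values were largest for CARS1 (0.61, SE 0.057, edgeR adjusted p 6.7e-06), GARS1 (0.52, adjusted p 5.4e-05) and AARS1 (0.50, adjusted p 7.3e-05), and smallest for IARS1 (0.19, adjusted p 0.0109) and NARS1 (0.18, adjusted p 0.00911). The IARS1 and NARS1 calls were lost without any 1 of the 4 untreated libraries or without replicate 1 of the treated Empty cells. For AARS1, CARS1, GARS1 and SARS1 all 4 treated libraries lay above all 4 untreated ones, which was so for 1.87% of all genes. In the other 7 of the 11 genes, at least 1 treated library of 1 line lay below the highest untreated library of the other.

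AARS2 (chr6:44298731-44313347, minus strand), the mitochondrial alanyl enzyme, was the exception among the mitochondrial genes. It was at 22.8 and 24.4 CPM in untreated Empty libraries and at 18.5 and 20.3 CPM in treated ones, and at 22.2 and 22.2 CPM in untreated NeuT libraries and 17.7 and 18.3 CPM in treated ones. All 4 treated libraries lay below all 4 untreated libraries, which was so for 1.29% of all genes. The change over both lines was -0.29 (SE 0.059, edgeR adjusted p 0.00807), while within each line it was not called, at -0.28 in Empty (adjusted p 0.22) and -0.30 in NeuT (adjusted p 0.0611). Its cytosolic counterpart AARS1 rose in the same mean comparison. The AARS2 call was lost without any 1 of 4 libraries, with adjusted p-values up to 0.0739 over the alternatives.

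Whether the lines differed in their response was tested as an interaction, the log2 fold change in NeuT minus that in Empty. None of the 36 genes passed, and 0.00565% of all genes did (1 gene); DESeq2 called none of the 36 either. 9 of the 36, all cytosolic, had an unadjusted p under 0.05, against 7.79% of all genes. The differences were 0.46 for CARS1 (95% interval 0.22 to 0.70, edgeR adjusted p 0.349), 0.36 for EPRS1 (0.16 to 0.56, adjusted p 0.407), 0.30 for YARS1 (0.12 to 0.48, adjusted p 0.457) and 0.30 for IARS1 (0.13 to 0.46, adjusted p 0.397). For SARS1 it was 0.04 (-0.13 to 0.22), the gene that was called in both lines. Without replicate 1 of the treated NeuT cells, 8 genes passed (AARS1, CARS1, EPRS1, GARS1, IARS1, MARS1, WARS1 and YARS1), while 4.16% of all genes passed in that fit.

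Set against its mitochondrial counterpart for the same amino acid, the cytosolic gene had the higher log2 fold change in 12 of 16 pairs in NeuT cells and in 14 of 16 in Empty cells. FARS2 and EPRS1 each enter 2 of these pairs. The median difference within a pair was 0.37 in NeuT and 0.18 in Empty. In NeuT the widest pairs were CARS1 and CARS2 (0.84 and -0.15), AARS1 and AARS2 (0.63 and -0.30), MARS1 and MARS2 (0.54 and -0.12) and YARS1 and YARS2 (0.57 and -0.05). The pairs that ran the other way in NeuT were FARSA and FARSB with FARS2, HARS1 with HARS2 and RARS1 with RARS2, and no gene of these was called. In Empty cells the pairs that ran the other way were HARS1 with HARS2 (-0.14 and -0.03) and RARS1 with RARS2 (-0.03 and 0.02).

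HARS1 and HARS2 lie head to head on chromosome 5, HARS1 at chr5:140673904-140691537 on the minus strand and HARS2 at chr5:140691430-140699305 on the plus strand, so their first exons overlap in the annotation. HARS1 was at 184.6 and 177.3 CPM in untreated Empty libraries, 164.3 and 163.3 CPM in treated ones, and at 201.2 and 204.3 and then 195.5 and 200.2 CPM in NeuT. HARS2 was at 62.7 and 65.7 and then 64.0 and 61.9 CPM in Empty, and at 59.0 and 60.1 and then 64.8 and 64.8 CPM in NeuT. The treated HARS1 libraries were the lower ones in both lines, and the treated HARS2 libraries were the higher ones in NeuT and overlapped the untreated ones in Empty. Neither gene was called with JG-98.

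**Figure D4:**
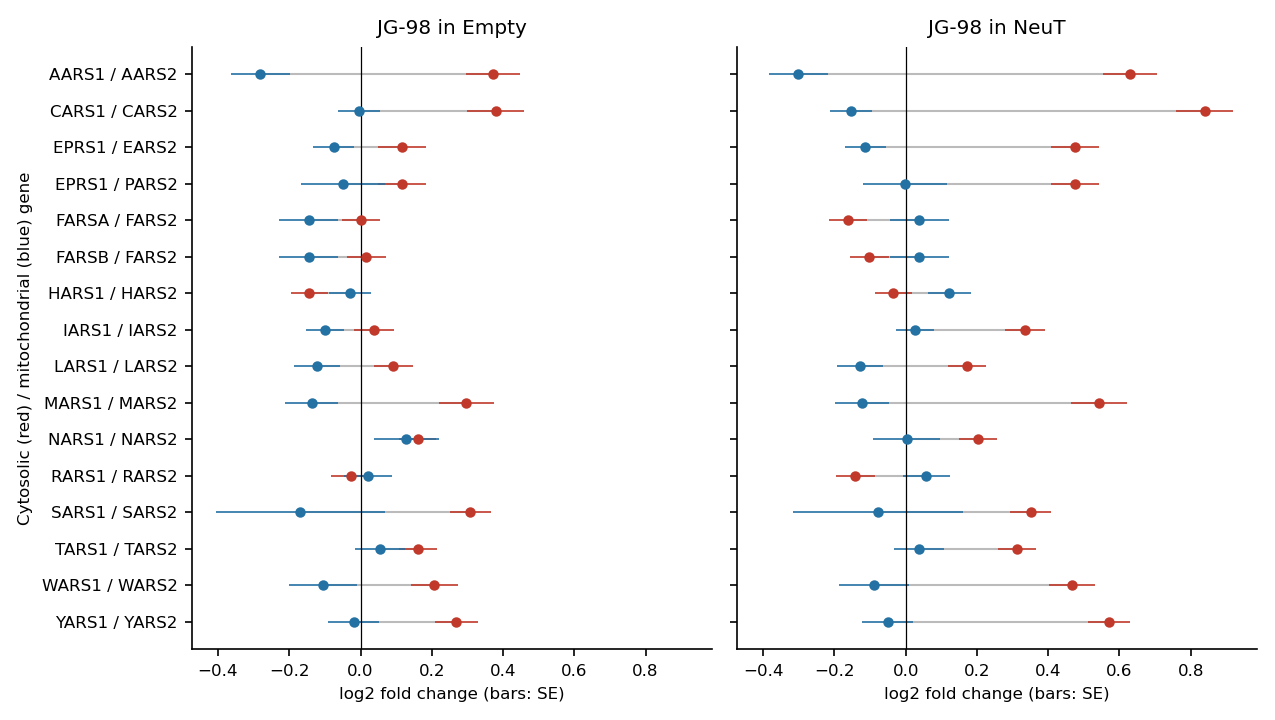
Log2 fold change with JG-98 for each cytosolic synthetase (red) and its mitochondrial counterpart (blue) in Empty and NeuT cells, with bars of 1 SE. The red point lies to the right of the blue one in 14 of 16 pairs in Empty and in 12 of 16 in NeuT.

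Without the drug, the lines already differed in 18 of the 36 genes: 3 were higher in NeuT cells and 15 lower. The background is large here, since 42.0% of all genes were called without the drug, 21.2% as higher and 20.8% as lower in the NeuT line. In bulk RNA, fewer cells of a type and less RNA per cell cannot be told apart. The median log2 difference, NeuT minus Empty, was -0.12 over cytosolic genes, -0.21 over mitochondrial genes and 0.02 over scaffold genes, against -0.0156 over all genes tested. The 10 proliferation genes checked were all lower in untreated NeuT cells, with a summed level of 881.2 and 887.1 CPM against 2154 and 2171 CPM in Empty, and their part in the synthetase levels was not tested. ATF4 was lower too, at 109.7 and 110.9 CPM against 248.5 and 236.6 CPM (log2 difference -1.14, edgeR adjusted p 9.4e-08).

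8 cytosolic synthetases were lower in untreated NeuT cells: EPRS1, YARS1, AARS1, MARS1, IARS1, LARS1, TARS1 and NARS1. EPRS1 was at 259.9 and 261.3 CPM in Empty and at 181.1 and 176.2 CPM in NeuT, and the log2 difference was -0.54 with an SE of 0.068 (adjusted p 5.7e-06 in edgeR). YARS1 was at 182.7 and 187.5 CPM in Empty against 132.5 and 127.8 CPM in NeuT (-0.51, adjusted p 2.6e-06). Both genes had separate groups, as had AARS1 (-0.47), MARS1 (-0.39), IARS1 (-0.35), LARS1 (-0.30), TARS1 (-0.28) and NARS1 (-0.20). Separate groups in that direction were found in 37.1% of all genes. The NARS1 call was lost without replicate 2 of either untreated group. 7 of these 8, all but LARS1, are among the genes that rose with JG-98 in NeuT cells. The untreated NeuT libraries enter both comparisons, so the 2 sets of values are not independent.

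WARS1, SARS1 and HARS1 were higher in untreated NeuT cells. WARS1 was at 143.0 and 139.7 CPM in Empty and at 196.1 and 189.6 CPM in NeuT, and the log2 difference was 0.45 with an SE of 0.066 (adjusted p 3.2e-05 in edgeR). SARS1 differed by 0.22 (adjusted p 0.00592) and HARS1 by 0.16 (adjusted p 0.0173). The HARS1 call was lost when total counts were used without scaling factors, and when any 1 untreated library was left out, and the SARS1 call without replicate 2 of untreated Empty.

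7 mitochondrial synthetases were lower in untreated NeuT cells and none was higher. EARS2, the mitochondrial glutamyl enzyme, was at 104.6 and 102.6 CPM in Empty and at 77.5 and 76.1 CPM in NeuT, which gave a log2 difference of -0.43 with an SE of 0.057 (adjusted p 9.3e-06 in edgeR). MARS2 was at 33.2 and 30.4 CPM against 24.0 and 24.0 CPM (-0.41, adjusted p 0.000301), and WARS2 at 23.0 and 24.3 CPM against 18.1 and 19.2 CPM (-0.34, adjusted p 0.00837). All 7 genes had separate groups, as had 37.1% of all genes in that direction. LARS2 (-0.28), NARS2 (-0.27), IARS2 (-0.24) and FARS2 (-0.23) were the others, with an edgeR adjusted p of 0.0339 for FARS2. The FARS2 call was lost with DESeq2, with no filter on low counts and without any 1 of the 4 untreated libraries, and the NARS2 call without any 1 of those libraries. IARS2 was not called without replicate 2 of untreated NeuT, nor WARS2 without replicate 1 of untreated NeuT or replicate 2 of untreated Empty. Of the 8 not called, RARS2 and TARS2 had values above 0, of 0.09 and 0.05.

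Under JG-98, 15 of the 36 genes differed between the lines, 4 higher and 11 lower in NeuT, while 41.7% of all genes were called, 21.7% as higher and 20.0% as lower. WARS1 was the most different, at 173.6 and 152.8 CPM in treated Empty libraries and 253.0 and 280.0 CPM in treated NeuT libraries (log2 difference 0.71, SE 0.066, edgeR adjusted p 1.7e-07). CARS1, which was not called between the untreated lines (-0.12, adjusted p 0.251), was higher in treated NeuT cells at 51.1 and 60.6 CPM against 45.4 and 43.1 CPM (0.34, adjusted p 0.00229). HARS1 (0.27) and SARS1 (0.26) were higher as well. All 4 of these genes had separate groups, as had 34.0% of all genes in that direction. GARS1 was not called as reported, but was called higher in treated NeuT cells in 4 of 18 alternatives. Its log2 difference ranged from 0.07 to 0.29 over the alternatives.

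The cytosolic genes lower in treated NeuT cells were LARS1 (-0.22), AARS1 (-0.21), YARS1 (-0.21), EPRS1 (-0.19) and NARS1 (-0.16). All 5 had lower NeuT libraries without overlap, which was so for 33.6% of all genes. Of these calls, AARS1 and EPRS1 were lost in 7 of 18 alternatives, NARS1 in 5 and YARS1 in 3, in each case also when only the 4 treated libraries were fitted or replicate 1 of either treated group was left out. AARS1 ranged from -0.36 to -0.07 over the alternatives, and EPRS1 from -0.28 to -0.09. The untreated differences of AARS1, YARS1 and EPRS1 were -0.47, -0.51 and -0.54. MARS1 (-0.15, adjusted p 0.15), IARS1 (-0.05) and TARS1 (-0.13) were not called between the treated lines. MARS1 and TARS1 were called lower with total counts and without replicate 2 of treated NeuT, with adjusted p-values down to 5.43e-05 and 0.00402, and MARS1 ranged from -0.31 to 0.00904 over the alternatives, the highest without replicate 1 of treated NeuT. EARS2 (-0.47), NARS2 (-0.40), MARS2 (-0.39), WARS2 (-0.33), LARS2 (-0.29) and CARS2 (-0.22) were the 6 mitochondrial genes called, all lower, and 5 of them, all but CARS2, were also lower without the drug. The CARS2 call was lost without replicate 2 of the treated Empty cells, and the WARS2 call without that group's replicate 1 or without replicate 2 of the treated NeuT cells. CARS2 was at 95.8 and 100.9 CPM in treated Empty libraries and at 86.0 and 83.2 CPM in treated NeuT libraries. As reported, no scaffold gene was called between the lines in either condition, with AIMP1 at -0.07 untreated and -0.17 treated, AIMP2 at 0.09 and -0.02, and EEF1E1 at 0.02 and -0.05. AIMP1 was called lower in treated NeuT cells in 4 of 18 alternatives (total counts, the replicate block, without replicate 1 of treated NeuT and without replicate 2 of treated Empty), with adjusted p-values down to 0.00519. With total counts, 22 of the 36 genes were called between the treated lines, 4 higher and 18 lower, beside 17.6% of all genes higher and 25.2% lower.

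**Figure D5:**
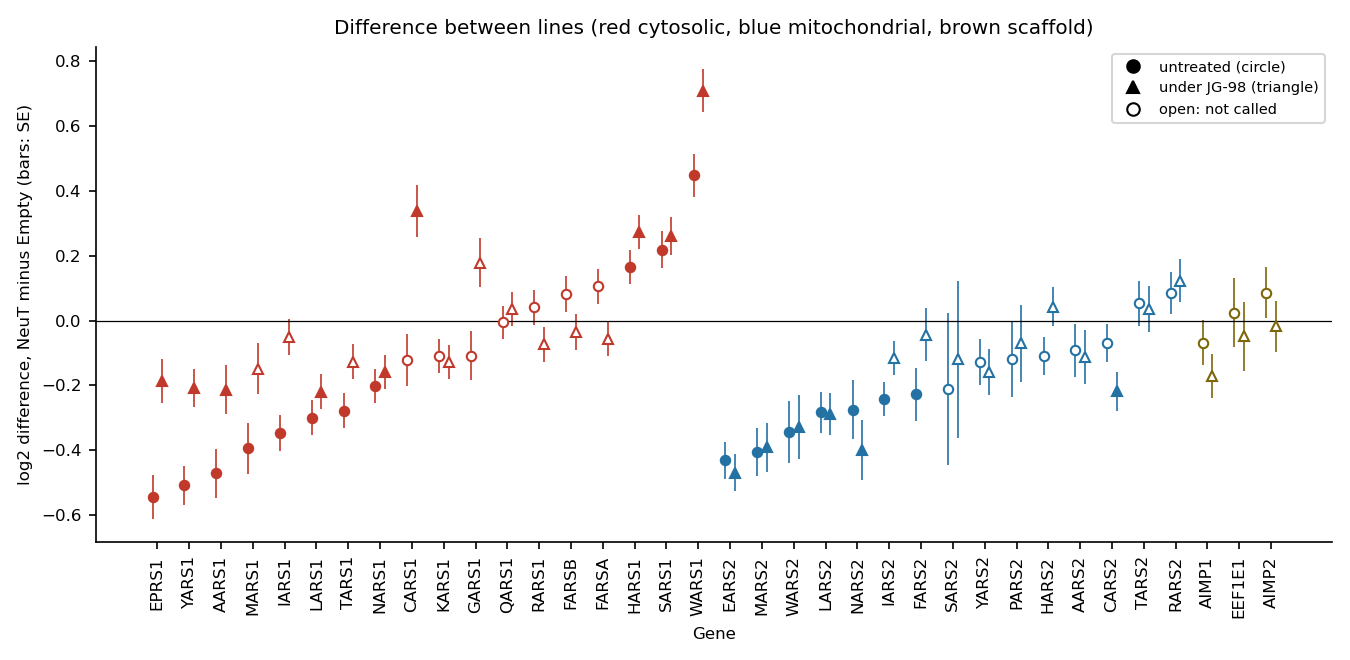
Log2 difference between the lines (NeuT minus Empty, bars of 1 SE) for each gene, untreated (circles) and under JG-98 (triangles), with open symbols where the gene was not called. EPRS1 goes from -0.54 untreated to -0.19 under JG-98, and EARS2 from -0.43 to -0.47.

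Genes that act beside the synthetases were described from a list of 19, of which 17 could be tested. With JG-98 in NeuT cells, XPOT, the exporter of tRNA from the nucleus, rose from 153.7 and 147.3 CPM to 193.7 and 215.6 CPM (log2 fold change 0.44, SE 0.059, edgeR adjusted p 0.000344). ELAC2, which trims the 3′ ends of tRNA precursors, fell from 169.6 and 172.9 CPM to 148.4 and 141.3 CPM (-0.24, adjusted p 0.0182). The other 15 were not called in NeuT, where 3.01% of all genes were called. None of the 17 was called in Empty, where 0.339% of all genes were. TARS3 and VARS1, synthetases outside the 36, were tested and neither was called with JG-98 in either line, with VARS1 at 1.69 in NeuT (SE 1.65, adjusted p 0.718).

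Of 11 stress genes listed with this pathway, 5 rose in Empty cells and 8 in NeuT cells, beside 0.260% and 2.01% of all genes tested. The list was chosen with earlier results of these data known. ATF4 rose from 248.5 and 236.6 CPM to 356.0 and 334.1 CPM in Empty (log2 fold change 0.51, edgeR adjusted p 0.0157) and from 109.7 and 110.9 CPM to 248.6 and 310.5 CPM in NeuT (1.34, adjusted p 1.7e-06). DDIT3, the gene of CHOP, a transcription factor induced by ATF4, rose by 1.33 in Empty and 2.60 in NeuT on the log2 scale. Among the 36 genes the values were smaller than these in each line, at most 0.38 in Empty and 0.84 in NeuT, both for CARS1. 4 of the 10 proliferation genes fell with JG-98 in NeuT cells, where 1.01% of all genes fell, and none was called in Empty. Their sums were 795.5 and 715.7 CPM in treated NeuT libraries against 881.2 and 887.1 CPM untreated. The part of the proliferation genes in the synthetase changes was not tested.

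The authors' deposited table of their own comparisons lists all 36 genes for JG-98 in each line. At an adjusted p under 0.05 it holds the same 11 cytosolic synthetases as higher in NeuT cells and the same gene, SARS1, as higher in Empty cells, with no mitochondrial or scaffold gene in either.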

How the data were processed

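RNA from 8 libraries was poly(A)-selected and sequenced as DNA nanoballs, per the labels' protocols. The authors deposited raw read counts per gene; per the submitters' processing notes the tools included Trim Galore 0.5.0, FastQC 0.11.7, HISAT2 2.1.0, SAMtools 1.9, featureCounts 1.6.3 and limma, with the build hg38. The annotation release, the strand setting and the treatment of reads that map to several places are not given in the sources used here. The authors also deposited tables of their own comparisons with log2 fold changes, p-values and, per the file headers, a t value and a log-odds score, used here only where named.

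The counts were fitted in R 4.3.3 with edgeR 4.0.16 (TMM factors, filterByExpr with a minimum count of 10, robust quasi-likelihood fit, 1 coefficient per group over all 8 libraries), with Benjamini-Hochberg adjustment over 17693 genes. An SE is the size of the log2 fold change divided by the square root of F, and 95% intervals use the t distribution of the same fit. Symbols came from GENCODE 29 and a table of gene names. Genes at 0 in a library allow up to 0.0528 to 0.0803 CPM (3 counts), a limit that covers counting error only. Alternatives included limma-voom (limma 3.58.1) and DESeq2 1.42.0. On simulated counts made for JG-98 in NeuT cells (17223 genes), the test recovered 82% of genes changed by 1.5-fold and 97% of those changed by 2-fold, with 13 false calls. For the interaction in the same simulated counts it recovered 65% and 91% of them, with 7 false calls. Recovery of changes below 1.5-fold, the size of most changes called here with JG-98, was not measured. The simulated comparison in Empty cells held 0 changed genes, so recovery there was not measured either.

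The members and the gene lists were chosen with earlier results of these data known. The rule for named genes took all called genes, the 3 scaffold genes, the counterpart pairs for the same amino acid and, among genes not called, those with the highest and lowest levels per kilobase. The values of single libraries for HARS2 and LARS1, and the log2 values of other genes not called, were added after they were seen.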

Additional observations from a re-analysis of the deposited data

How the results depend on the processing

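Over the alternatives (18, or 17 for the mean effect and the interaction, which need all 4 groups) no called synthetase changed direction. Of the genes called, 7 of 11 in NeuT cells, 9 of 12 for the mean effect, 11 of 18 between untreated lines and 9 of 15 between treated lines kept their call in every alternative run for that comparison. The count of members called in Empty cells varied with the processing: 1 as reported, 4 with total counts, 6 with no filter on low counts, 6 with DESeq2, 0 with limma-voom, 6 with only the 4 libraries compared, and 0 to 9 when a library was left out. Leaving out a library gave 7 to 14 members called in NeuT cells, 9 to 14 for the mean effect, 0 to 8 for the interaction (2 with no filter, CARS1 and EPRS1), 12 to 19 between untreated lines and 11 to 17 between treated lines. The median of cytosolic members then ranged from 0.085 to 0.194 in Empty, 0.261 to 0.374 in NeuT and 0.073 to 0.155 for the interaction. That of mitochondrial members ranged from -0.099 to -0.014 in NeuT, -0.232 to -0.145 between untreated lines and -0.175 to -0.091 between treated lines. With total counts, the cytosolic and mitochondrial medians between lines were -0.18 and -0.28 untreated and -0.14 and -0.19 treated, the median of all genes was -0.0844 and -0.0761, and 22 members were called between treated lines (4 higher, 18 lower, beside 17.6% and 25.2% of all genes). The cause of these differences was not tested.

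Over all genes, members included, 60 were called in Empty cells against 282 with no filter, 151 with DESeq2 and 205 with only the 4 libraries compared, and 533 in NeuT cells against 1000 with no filter and 185 with only the 4 libraries. The mean effect gave 702 against 1142 with no filter. The interaction gave 1 against 138 with no filter, 26 with DESeq2, 3 without robust estimation and 2 with total counts. When a library was left out, 9 to 417 of all genes were called in Empty, 132 to 2133 in NeuT, 259 to 1934 for the mean effect and 1 to 777 for the interaction.

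The labels number the replicates 1 and 2 in each group, but the differences between replicates correlated at only -0.101 to 0.244 between groups over 9551 genes, so the numbers were not taken as pairs. With the replicate number as a block, members called were 2 in Empty, 11 in NeuT, 12 for the mean effect, 0 for the interaction, and 18 and 16 between untreated and treated lines. With the numbers of the treated NeuT libraries crossed, an alternative chosen after seeing the data, they were 3, 10, 12, 0, 18 and 16, and 7 of all genes passed the interaction.

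With 2 libraries a group and 1 library of 37341458 reads, the smallest called difference of a member was -0.16 on the log2 scale (NARS1 between treated lines).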

Other observations

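VARS1, the cytosolic valyl-tRNA synthetase, which is outside the 36 genes, differed widely between replicates of the same group. It was at 5.20 and 0.649 CPM in untreated Empty libraries, 6.01 and 0.835 CPM in treated ones, 0.932 and 0.612 CPM in untreated NeuT libraries and 4.03 and 0.962 CPM in treated ones. Its mitochondrial counterpart VARS2 was between 0.0555 and 0.950 CPM and was not tested. The cause of the replicate differences was not looked into. How reads that map to several places were counted is not given, so the levels of VARS1 and VARS2 are uncertain.

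Pseudogenes named after 13 of the 36 genes held 0 to 3 counts over all 8 libraries, except EEF1E1P1 with 54.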
